A study of Homo sapiens with 15 samples.

Results

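hsa-miR-21-5p and hsa-miR-21-3p (miR-21-5p and miR-21-3p), the guide and the passenger arm of the human miR-21 hairpin, were followed through the small RNA libraries of an FTO knockdown and of an m6A RNA immunoprecipitation (RIP-seq). Both arms were taken by name, and they are 2 of the 2418 miRNAs counted in the knockdown libraries and 2 of the 2189 counted in the RIP-seq libraries, with 2183 names in both tables. The study asked whether N6-adenosine methylation (m6A), which the demethylase FTO removes, is linked to the levels of miRNAs and whether miRNAs carry the mark. All libraries came from FTO1C1, FTO2D4 and FTO3C3, derivatives of the human embryonic kidney line HEK293 that were kept uninduced, and each of the 5 groups held 1 library per derivative, so that n = 3 throughout. For the knockdown, cells received 10 nM of scrambled siRNA or of FTO siRNA for 48 h. For the RIP-seq, small RNA of the same lines was sequenced without precipitation (input), after precipitation with an antibody against m6A, and after precipitation with a control IgG. The labels of these libraries name no siRNA. Each line is a single clone of a cultured cell line. The p-values below rest on how far a change varied between these 3 clones and reach no further. In the fits, the spread of each miRNA or hairpin was also drawn toward that of all of them. For IgG against input it was taken almost wholly from all of them, so those p-values do not rest on the spread of miR-21 itself. The FTO transcript itself is not a small RNA, so its level was not analysed here.

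A miRNA hairpin is cut by Dicer into a short duplex. The strand that is kept in the Argonaute protein, the guide, pairs through its seed (bases 2 to 8) with target mRNAs, whereas the passenger strand is mostly released and degraded. For miR-21 the 5p arm is the usual guide. It is a widely expressed miRNA that is often raised in tumours, and PDCD4, a translational repressor, is a well known target.

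The mature guide is shown first because it carries a single match to the m6A consensus and shares its seed with another miRNA. The RefSeq sequences of build GRCh38.p14 gave a mature sequence for 1 of the 2 arms, miR-21-5p. In the following lines capitals mark the seed, and miR-590-5p is shown because it is the other mature miRNA, among 2370 names, that holds the same seed AGCUUAU.
miR-21-5p: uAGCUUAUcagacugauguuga
miR-590-5p: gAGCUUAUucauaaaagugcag
miR-21-5p covers chr17:59841273-59841294 on the plus strand and starts at base 8 of the MIR21 hairpin, which spans chr17:59841266-59841337 (72 bases) inside the span of the protein-coding gene VMP1 (chr17:59707654-59842255). miR-590-5p covers chr7:74191213-74191234 on the plus strand, and it was not among the names counted in the knockdown or the RIP-seq libraries.

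The m6A consensus is A or G, A or G, A, C, and then A, C or U, and its 12 spellings were searched in the given strand, since mature miRNAs are single-stranded. In the next line capitals mark the match.
miR-21-5p: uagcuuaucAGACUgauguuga
The match AGACU lies at bases 10 to 14, outside the seed. Of the 2370 mature sequences, 491 (20.7%) held a match to any of the 12 spellings and 64 (2.70%) held AGACU. A match of letters is a description and does not show that the adenosine is methylated.

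Levels are given as reads per 1000000 miRNA reads of the library (RPM). The totals of miRNA reads were between 1991317 and 3876806 in the knockdown libraries and between 186446 and 4973238 in the RIP-seq libraries, with the lowest in the IgG library of FTO3C3. In the RIP-seq libraries the totals leaned on 1 miRNA, miR-6080, which took 15.5% to 28.4% of the reads of the input, 41.3% to 47.8% of those of the m6A and 58.0% to 71.6% of those of the IgG libraries, so that every RPM of the precipitates moves with it. In the knockdown libraries its share was 2.05% to 4.18%. There the totals leaned on miR-10a-5p, with 22.1% to 30.6% of the reads under scrambled siRNA and 25.2% to 27.8% under FTO siRNA. The share of miR-10a-5p was 9.67% to 16.2% in the input, 7.12% to 9.30% in the m6A and 0.0545% to 0.161% in the IgG libraries. The count of miR-6080 was the same number, 563404, in the m6A and in the IgG library of FTO2D4, and was the sole entry of at least 1000 reads that was equal between any 2 of the RIP-seq libraries. The summed level of 5 miRNAs abundant in HEK293 cells was 369240 to 467613 RPM in the knockdown libraries and as low as 1010 to 2419 RPM in the IgG libraries. Of 15 miRNAs that mark blood, liver, muscle, endothelium and mesenchyme, 13 were listed in the knockdown table with a sum of 280.1 to 489.8 RPM and 10 in the RIP-seq table with a sum of 221 to 2405 RPM.

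miR-21-5p was among the most abundant miRNAs of the siRNA-treated cells. In the scrambled siRNA libraries it held 4159 RPM in FTO1C1, 9989.5 RPM in FTO2D4 and 4408 RPM in FTO3C3, from 15132, 24613 and 8777 reads, a mean of 6186 ± 3297 (SD, n = 3), and it ranked between 17 and 30 of 2418. In the FTO siRNA libraries it held 4021, 6565 and 2853 RPM, from 13992, 22732 and 11061 reads, a mean of 4479 ± 1898 (SD, n = 3). FTO2D4 was the highest line under both siRNAs, and the ranges of the 2 groups overlapped.

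In the RIP-seq libraries miR-21-5p was lower in the precipitates than in the input, in every line. The input libraries held 1175, 2916 and 987 RPM (1655, 4257 and 1481 reads), a mean of 1693 ± 1064 (SD, n = 3). The m6A libraries held 89.6, 97.6 and 129 RPM (51, 133 and 644 reads), a mean of 106 ± 21.1, and the IgG libraries 33.7, 36.9 and 59.0 RPM (25, 29 and 11 reads), a mean of 43.2 ± 13.8. The 3 groups did not overlap, and every precipitate rested on fewer reads than any input. In order, the mean levels were scrambled siRNA, FTO siRNA, input, m6A and IgG, and of the neighbours in this order only m6A against input and IgG against m6A had ranges that did not overlap, with ratios of the means of 16.04 and 2.44. The input and the siRNA groups were counted in separate tables, so their order is a side-by-side reading without a test.

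miR-21-3p was about an order of magnitude lower than the guide in the siRNA-treated cells, close to it in the m6A libraries and above it in the IgG libraries. It held 439.5, 1132 and 446 RPM under scrambled siRNA (1599, 2788 and 889 reads), a mean of 673 ± 398 (SD, n = 3), and 517, 858 and 299 RPM under FTO siRNA (1798, 2971 and 1159 reads), a mean of 558 ± 282. The input held 452, 869 and 309.9 RPM (637, 1268 and 465 reads), a mean of 544 ± 290.4. FTO2D4 was again the highest line in these 3 groups, whose ranges overlapped. The m6A libraries held 89.6, 82.9 and 91.1 RPM (51, 113 and 453 reads), a mean of 87.9 ± 4.34, and the IgG libraries 64.7, 76.3 and 177 RPM (48, 60 and 33 reads), a mean of 106 ± 61.8. Both precipitates lay below every input, whereas the m6A range fell inside the IgG range. The study called a miRNA methylated at 100 RPM or more together with at least 2-fold enrichment over IgG. In the m6A libraries that level was reached by miR-21-5p in 1 of 3 lines and by miR-21-3p in 0 of 3. The study did not state whether the level had to be met in each line. On means, miR-21-5p was at 106 RPM and 2.50-fold over IgG. Neither arm is in the list of enriched miRNAs that the study gave.

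**Figure D1:**
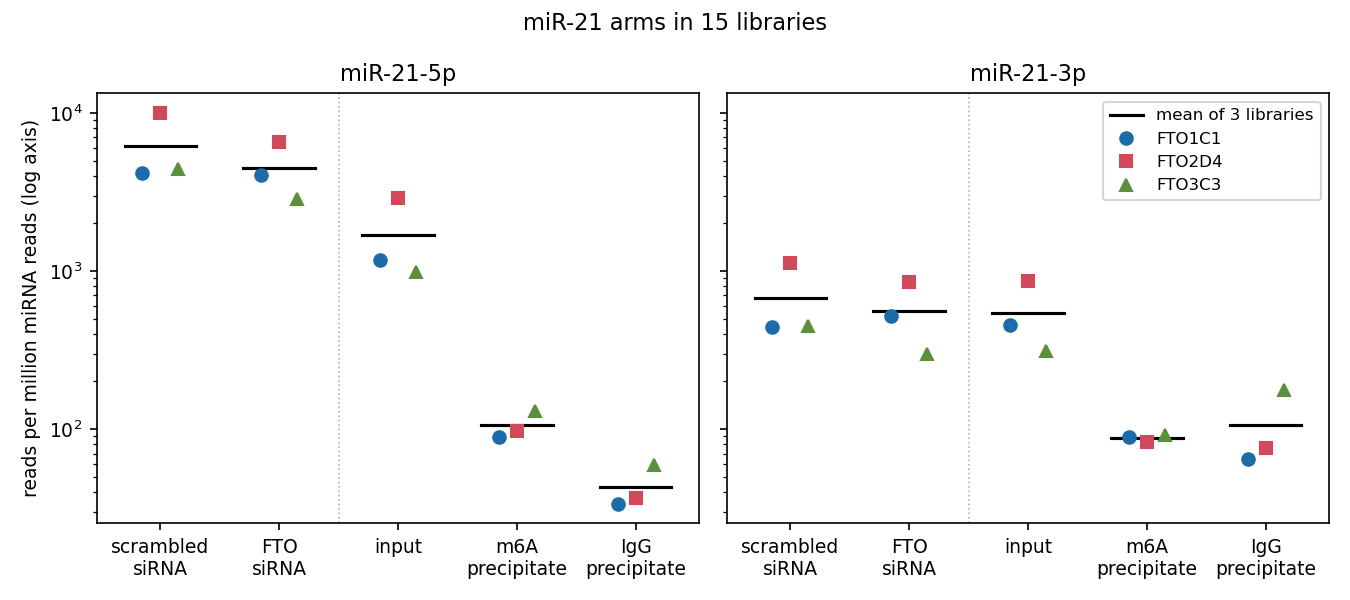
Level of miR-21-5p and miR-21-3p in each library, in RPM on a log axis, for the 5 groups, with 1 point per cell line and a bar at the group mean. miR-21-5p falls from a mean of 6186 RPM under scrambled siRNA to 43.2 RPM in the IgG precipitates, and miR-21-3p lies above miR-21-5p in the IgG precipitates alone.

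The first comparison asked whether the arms of miR-21 changed after FTO knockdown. Neither arm passed the test. The level under FTO siRNA relative to scrambled siRNA within a line was 0.967, 0.657 and 0.647 for miR-21-5p in FTO1C1, FTO2D4 and FTO3C3, a mean ratio of 0.757 ± 0.182 (SD, n = 3). It lay below 1 in all 3 lines, and FTO1C1 was close to 1. The study lists miR-21-5p, and not miR-21-3p, among its miRNAs with significantly decreased levels after knockdown. The criteria it describes are a read level and a fold change, which differ from the test used here. By edgeR's quasi-likelihood test the log2 fold change was -0.43 (SE 0.15, 95% interval -0.77 to -0.09), with an adjusted p of 0.120 over the 2374 miRNAs tested. For reference, 5.48% of the tested miRNAs were called, 0.505% lower and 4.97% higher, and 3.45% had a lower log2 fold change than miR-21-5p. The median log2 fold change of all miRNAs was 0.29 on this scale. After TMM scaling, where the median was near 0, the log2 fold change of miR-21-5p was -0.72 with an adjusted p of 0.0512 and the calls split into 21 higher and 34 lower against 118 and 12, and with DESeq2 it was -0.72 with an adjusted p of 0.00507, so the call rests on the scaling and the tool.

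The same ratios of miR-21-3p were 1.18, 0.758 and 0.670 in FTO1C1, FTO2D4 and FTO3C3, a mean of 0.868 ± 0.270 (SD, n = 3). The lines lay on both sides of 1. The log2 fold change was -0.25 (SE 0.18, 95% interval -0.65 to 0.15) with an adjusted p of 0.402 (edgeR), and 6.99% of the miRNAs had a lower value. It was -0.54 with TMM factors (adjusted p 0.147, edgeR) and with DESeq2 (adjusted p 0.0781), -0.49 without FTO1C1 and -0.08 without FTO3C3. The interval includes no change and also a fall by 0.65 on the log2 scale.

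The second comparison asked whether the m6A antibody brought down the arms of miR-21 beyond the control IgG. miR-21-5p was higher in the m6A than in the IgG library of each line, 2.66-, 2.65- and 2.19-fold, a mean of 2.50 ± 0.264 (SD, n = 3). The difference was larger than the spread between the lines, with a log2 fold change of 1.32 (SE 0.33, 95% interval 0.57 to 2.07) and an adjusted p of 0.0122 (edgeR, 2054 miRNAs tested). Among the tested miRNAs 39.8% were called, 38.6% higher and 1.27% lower, the median log2 fold change was 0.83, and 64.1% of the miRNAs had a lower value than miR-21-5p. The call was lost with TMM factors (0.57, adjusted p 0.189 by edgeR), with DESeq2 (0.53, adjusted p 0.394), with totals that leave out miR-6080 (0.63, adjusted p 0.168 by edgeR), and without FTO2D4 (1.28, adjusted p 0.0773 by edgeR), and TMM factors turned the calls of all miRNAs from 792 higher and 26 lower into 453 and 302. The IgG values rest on 11 to 29 reads, and the part that the equal miR-6080 counts of FTO2D4 play in this result was not tested beyond leaving out that line and that miRNA.

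miR-21-3p did not pass this test. Its m6A level relative to IgG was 1.38, 1.09 and 0.515 in the same order of lines, a mean of 0.995 ± 0.442 (SD, n = 3), and the lines lay on both sides of 1. The log2 fold change was -0.12 (SE 0.38, 95% interval -0.97 to 0.73) with an adjusted p of 0.823 (edgeR), and 20.4% of the miRNAs had a lower value. Under other scalings it was -0.87 with TMM factors (adjusted p 0.0766, edgeR), -0.91 with DESeq2 (adjusted p 0.105) and -0.81 with totals that leave out miR-6080 (adjusted p 0.108, edgeR). Without FTO3C3, whose IgG library was the smallest, the sign turned and the log2 fold change was 0.29 with an adjusted p of 0.558 (edgeR).

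The third comparison set each precipitate against its own input. These comparisons share the input libraries. Both arms fell in both precipitates, and the values of miR-21-5p fell further than those of miR-21-3p, a difference tested below as the balance of the arms. For m6A against input, miR-21-5p was lower by a factor of 13.1, 29.9 and 7.62 in the 3 lines, and the fitted log2 fold change was -3.84 (SE 0.47, 95% interval -4.81 to -2.87), a 14.3-fold fall with an adjusted p of 7.12e-08 (edgeR). miR-21-3p was lower by a factor of 5.05, 10.5 and 3.40, with a log2 fold change of -2.49 (SE 0.43, 95% interval -3.37 to -1.61), a 5.62-fold fall with an adjusted p of 9.72e-06 (edgeR). The loss was largest in FTO2D4 for both arms.

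Of the 2174 miRNAs tested for m6A against input, 77.3% were called, 10.5% lower and 66.8% higher, and the median log2 fold change was 1.65. miR-21-5p had the 40th lowest value and miR-21-3p the 78th. With TMM factors the calls split into 575 higher and 614 lower against 1452 and 229, and both arms stayed lower, with log2 fold changes of -5.39 and -4.04 and adjusted p-values of 1.08e-05 and 2.36e-05 (edgeR).

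For IgG against input, miR-21-5p was lower by a factor of 34.8, 79.1 and 16.7 in FTO1C1, FTO2D4 and FTO3C3, with a log2 fold change of -5.25 (SE 0.49, 95% interval -6.21 to -4.28), a 37.9-fold fall with an adjusted p of 1.78e-24 (edgeR). miR-21-3p was lower by a factor of 6.98, 11.4 and 1.75, with a log2 fold change of -2.43 (SE 0.46, 95% interval -3.32 to -1.53), a 5.37-fold fall with an adjusted p of 5.35e-07 (edgeR). In this fit the spread was taken almost wholly from all miRNAs together, and in a fit over the 9 RIP-seq libraries the adjusted p of miR-21-5p was 1.39e-08 (edgeR). Of the 1941 miRNAs tested, 58.6% were called, 21.8% lower and 36.8% higher, with a median log2 fold change of 0.49, and 3.66% had a lower value than miR-21-5p and 13.0% than miR-21-3p. TMM factors split the calls into 559 higher and 586 lower against 714 and 423, and totals without miR-6080 into 1231 and 273, and both arms stayed called lower under either scaling. Their log2 fold changes were -4.11 and -1.29 without miR-6080 in the totals. They were -4.65 and -1.83 without FTO2D4, and that of miR-21-3p was -3.16 without FTO3C3.

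**Figure D2:**
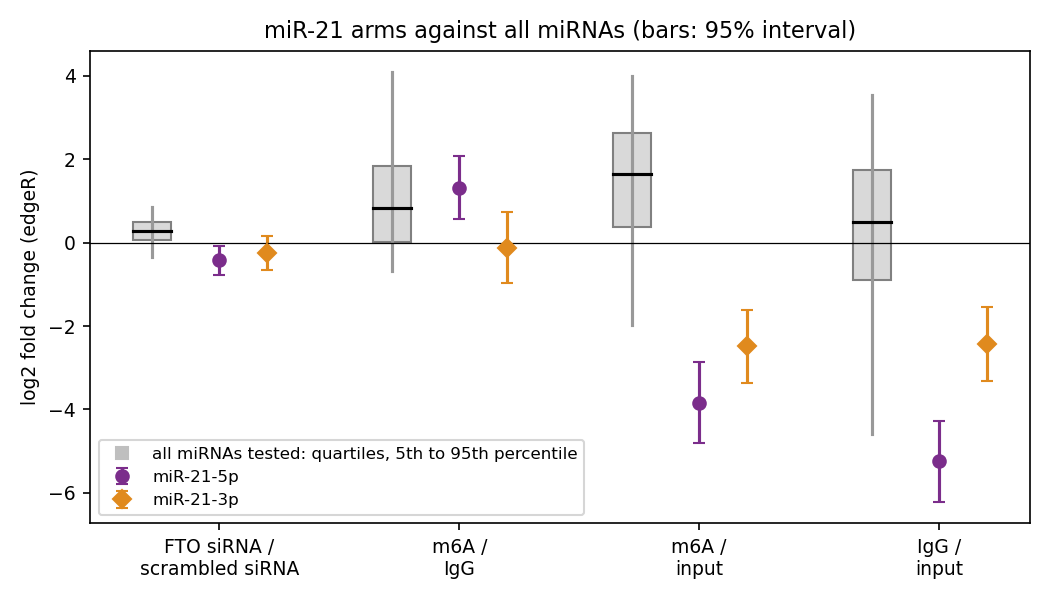
Log2 fold change of miR-21-5p and miR-21-3p in the 4 comparisons (edgeR, with 95% intervals as error bars), beside grey boxes with the median, the quartiles and the 5th to 95th percentile of all miRNAs tested. The arms lie close together for FTO siRNA against scrambled siRNA (-0.43 and -0.25) and furthest apart for IgG against input (-5.25 and -2.43).

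The balance of the arms can be read inside a library and does not depend on its total. The share of miR-21-3p among the reads of both arms was 9.56% (Wilson 95% interval 9.12% to 10.0%), 10.2% (9.82% to 10.5%) and 9.20% (8.64% to 9.79%) under scrambled siRNA, a mean of 9.64% ± 0.494 (SD, n = 3). Under FTO siRNA it was 11.4% (10.9% to 11.9%), 11.6% (11.2% to 11.96%) and 9.48% (8.98% to 10.0%), a mean of 10.8% ± 1.15. The intervals cover counting error only, because PCR copies of a molecule cannot be told apart in these reads. FTO3C3 had the lowest share under both siRNAs, and its 2 intervals overlapped whereas those of the other lines did not.

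The share rose from input to m6A to IgG with no overlap between the shares of the groups, although some counting intervals of the m6A and IgG libraries overlapped. In the input it was 27.8%, 23.0% and 23.9%, a mean of 24.9% ± 2.57 (SD, n = 3), with intervals between 21.9% and 29.7%. In the m6A libraries it was 51 of 102 reads (40.5% to 59.5%), 45.9% of 246 (39.8% to 52.2%) and 41.3% of 1097 (38.4% to 44.2%), a mean of 45.7% ± 4.36. In the IgG libraries it was 65.8% of 73 reads (54.3% to 75.6%), 67.4% of 89 (57.1% to 76.3%) and 33 of 44 reads (60.6% to 85.4%), a mean of 69.4% ± 4.93. The miR-21-3p arm was thus in the minority in every input library and in the majority in every IgG library. Its mean share also differed between unprecipitated groups, at 24.9% in the input beside 9.64% and 10.8% under scrambled and FTO siRNA. Those groups were counted in separate tables, and this difference was not tested. Hairpins with a mean of at least 10 reads on each arm were taken within each group. Of these, 24.3% of 428 had a lower 3p share than miR-21 in the input and 49.9% of 599 in the m6A libraries. It was 75.8% of 244 in the IgG libraries, against 12.5% of 638 under scrambled siRNA. The sets of hairpins differ between the groups, so these percentages are not directly comparable.

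**Figure D3:**
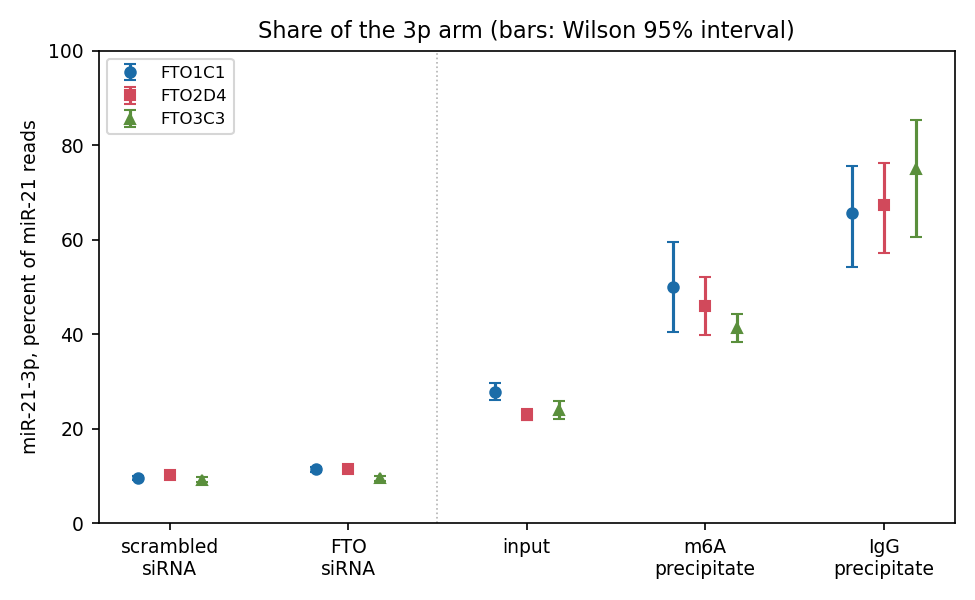
Share of miR-21-3p among the reads of both miR-21 arms, in percent, for each library of the 5 groups, with Wilson 95% intervals as error bars. The mean share is 9.64% under scrambled siRNA and 69.4% in the IgG precipitates, and the points of input, m6A and IgG do not overlap.

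The log2 ratio of miR-21-3p to miR-21-5p was then compared between groups with limma across all hairpins with both arms counted. For FTO siRNA against scrambled siRNA it rose by 0.28, 0.21 and 0.05 in the 3 lines, and the fitted change was 0.18 (SE 0.12, 95% interval -0.08 to 0.44) with an adjusted p of 0.523 (limma). Of 693 hairpins 0.866% were called toward 3p and 1.01% toward 5p, so the balance of miR-21 had the same direction in 3 of 3 lines without passing the test. For m6A against IgG the change was -1.42 (SE 0.43, 95% interval -2.40 to -0.43), 2.67-fold toward 5p, with an adjusted p of 0.0393 (limma) and line values of -0.94, -1.28 and -2.09. Here 20.3% of 591 hairpins were called toward 5p and 10.5% toward 3p. The call was lost without FTO2D4 (-1.49, adjusted p 0.148 by limma) and without FTO3C3 (-1.10, adjusted p 0.183 by limma).

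Against input the balance of miR-21 moved toward 3p in both precipitates. For m6A the change was 1.35 (SE 0.28, 95% interval 0.68 to 2.02), 2.55-fold, with an adjusted p of 0.00707 (limma) and line values of 1.38, 1.51 and 1.16, where 23.6% of 598 hairpins were called toward 3p and 30.8% toward 5p. For IgG it was 2.77 (SE 0.40, 95% interval 1.98 to 3.55), 6.81-fold, with an adjusted p of 5.75e-11 (limma) and line values of 2.32, 2.80 and 3.26, where 31.3% of 428 hairpins were called toward 3p and 25.7% toward 5p. In the IgG fit the spread was taken almost wholly from all hairpins together. Of the hairpins 75.8% changed less toward 3p than miR-21 for m6A and 80.4% for IgG, and the median change of all hairpins was -0.31 and 0.00. The exact two-sided sign-flip test over 3 lines gave p = 0.25 in each of the 4 comparisons, the smallest value that 3 pairs allow.

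**Figure D4:**
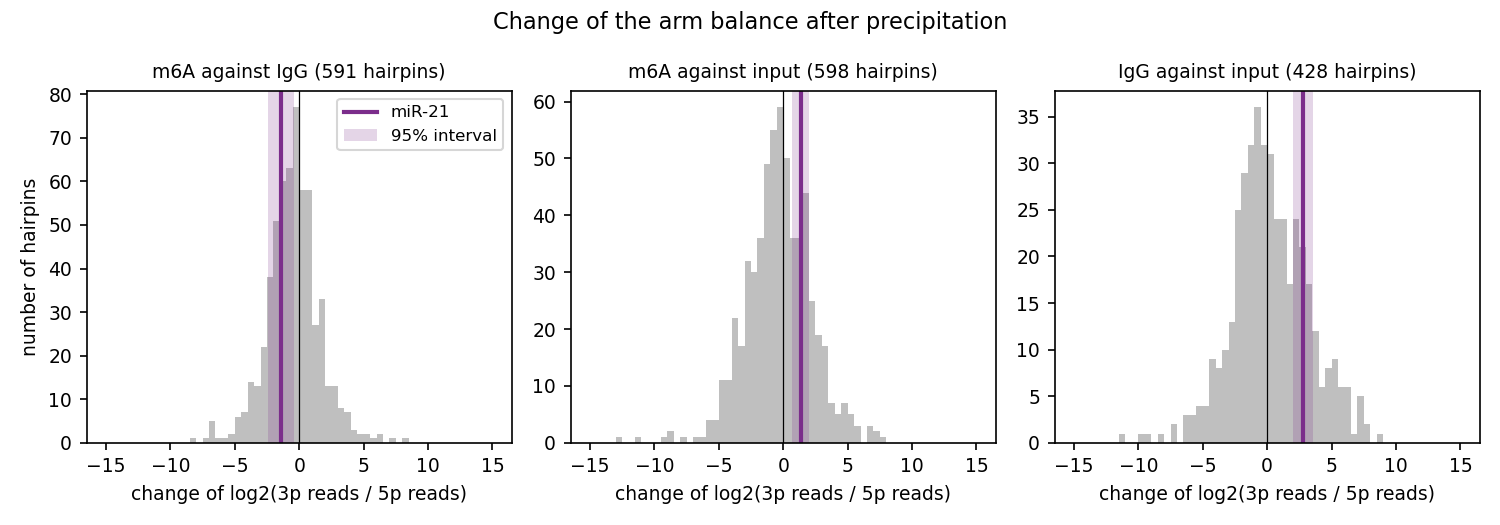
Number of hairpins by their change in the log2 ratio of 3p to 5p reads (limma) for m6A against IgG, m6A against input and IgG against input, with miR-21 as a vertical line and its 95% interval shaded. miR-21 lies toward 5p for m6A against IgG (-1.42) and toward 3p for m6A against input (1.35) and IgG against input (2.77), inside the range of the other hairpins in each panel.

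The clone FTO2D4 held more of both arms than the other lines wherever RNA was not precipitated. Its level relative to the mean of FTO1C1 and FTO3C3 was 2.33 for miR-21-5p and 2.55 for miR-21-3p under scrambled siRNA, 1.91 and 2.10 under FTO siRNA, and 2.70 and 2.28 in the input. In the precipitates this was not seen, with 0.891 and 0.918 for m6A and 0.795 and 0.631 for IgG. Of the 942 miRNAs with a mean of at least 15 RPM in the 3 unprecipitated groups, ordered by the lowest of their 3 ratios, miR-21-3p was in place 1 and miR-21-5p in place 2, ahead of miR-4648 (1.78) and miR-196a-5p (1.70). Within single groups other miRNAs had larger ratios, up to 24 of 1164 for miR-21-3p in the input and 16 of 1374 for miR-21-5p under FTO siRNA. The median ratio of all these miRNAs was 0.982, 1.08 and 1.29 in the same groups. This is a description of 1 clone, noticed in the values and not tested, and a difference in RNA per cell and one in the makeup of the cells cannot be told apart in such bulk libraries.

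The miRNAs whose levels ran most like each arm were sought among 1232 miRNAs with a mean of at least 15 RPM in each table, by Pearson's r of log2(RPM + 1), centred within each table, over the 15 libraries. These libraries share their totals and the contrast between input and precipitates, so the values describe a common pattern. For miR-21-5p they were miR-579-3p (0.980), miR-301b (0.978) and miR-374a-3p (0.973), and for miR-21-3p they were miR-582-5p (0.933), let-7a-3p (0.924) and miR-21-5p itself (0.920). From the side of miR-21-5p its own passenger arm came in place 49. miR-374a-3p is shown beside miR-21-5p because both hold the run CUUAUCAGA, which is in capitals and is found in 2 of the 2370 mature sequences.
miR-21-5p: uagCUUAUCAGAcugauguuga
miR-374a-3p: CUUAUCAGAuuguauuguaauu
The run is at bases 4 to 12 of miR-21-5p and at bases 1 to 9 of miR-374a-3p, which covers chrX:74287295-74287316 on the minus strand. Because these miRNAs were chosen by their likeness over the same libraries, their fold changes are given as a description and support nothing. After FTO knockdown they were 0.22 for miR-579-3p, 0.36 for miR-301b and -0.20 for miR-374a-3p, beside -0.43 for miR-21-5p, and with TMM factors they were -0.07, 0.06 and -0.49, beside -0.72. For m6A against IgG the values were 1.20, 1.77 and 1.86 in the same order, beside 1.32 for miR-21-5p. miR-582-5p was at -0.27 after knockdown and at -0.15 for m6A against IgG, beside -0.25 and -0.12 for miR-21-3p. let-7a-3p went the other way after knockdown, at 0.39 (0.10 with TMM factors), and was not among the miRNAs tested for m6A against IgG.

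Against 20 other guide strands often described as oncogenic, miR-21-5p was in the lower range after knockdown and for m6A against IgG. After FTO knockdown 1 of the 20 rose, miR-221-3p, which targets the cell cycle inhibitor p27 (log2 fold change 1.47, SE 0.15, adjusted p 0.000812, edgeR), and 1 fell, miR-25-3p of the miR-106b-25 cluster (-0.61, SE 0.12, adjusted p 0.0246, edgeR). Over all miRNAs 4.97% were called higher and 0.505% lower, so the share of the list that rose was near that of all miRNAs. The share that fell was larger than that of all miRNAs but rests on 1 miRNA. DESeq2 called 1 of 18 higher and 4 lower, beside 32 higher and 57 lower of the 824 miRNAs with an adjusted p. Over all 2374 miRNAs, TMM factors gave 21 higher and 34 lower. The median of the list was -0.01, beside 0.29 for all miRNAs (-0.31 with TMM factors, where miR-31-5p was also called lower), and miR-25-3p and miR-31-5p (-0.49, adjusted p 0.0769, edgeR) had lower values than miR-21-5p. For m6A against IgG, 13 of the 17 members tested were called higher and 0 lower, with a median of 3.55 beside 0.83 for all miRNAs, of which 38.6% were called higher and 1.27% lower. Their values ran from 0.01 (miR-155-5p, a miRNA of activated lymphocytes) to 5.88 (miR-10b-5p, encoded in a HOX gene cluster), and 3 members lay below the 1.32 of miR-21-5p. With TMM factors 13 of the 17 were again called higher, with a median of 2.81, and again 3 lay below miR-21-5p. Of all 2054 miRNAs, 453 were then called higher and 302 lower.

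Relative to input most of these guide strands fell with miR-21-5p. For m6A against input 13 of 19 were called lower and 3 higher, the latter miR-155-5p (2.41), miR-210-3p (1.64) and miR-31-5p (1.29), and the median was -3.48 beside 1.65 for all miRNAs. Of all miRNAs 10.5% were called lower and 66.8% higher. With TMM factors 16 were called lower and 0 higher (edgeR), so the calls of those 3 were lost, whereas totals without miR-6080 left them called higher. Of all 2174 miRNAs, 614 were called lower and 575 higher with TMM factors. Totals without miR-6080 gave 147 lower and 1601 higher of 2183. Without these scalings the lowest of the list was miR-25-3p (-5.37), and 8 members lay below miR-21-5p. For IgG against input 17 of 19 were called lower and 1, miR-155-5p (2.38), higher, with a median of -6.43 beside 0.49 for all miRNAs, of which 21.8% were called lower and 36.8% higher, and 11 members lay below miR-21-5p. The lowest was miR-20a-5p (-8.56), of the miR-17-92 cluster.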

How the data were processed

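For each mature miRNA, the authors deposited raw read counts in 1 table for the 6 knockdown libraries and 1 for the 9 RIP-seq libraries. They trimmed adapters from 50-base reads with cutadapt (4 bp overlap, 20% error), kept 16 to 28 bp and matched the reads to miRBase release 20 by exact matches of at least 7 bases that cover at least 17. The siRNA sequences were in the reference of the knockdown table, so the tables were tested separately. A read that fits several miRNAs went to the best match, so close relatives can hold each other's reads. No genome alignment was involved. RefSeq (GRCh38.p14) gave mature sequences for 2122 of the 2418 and 1923 of the 2189 names.

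From the counts, RPM of total miRNA reads were computed. edgeR's quasi-likelihood test was fitted on all miRNAs of a table (filterByExpr, minimum count 10, library size the total of miRNA reads, cell line as block), and limma with a trend on log2((3p + 0.5)/(5p + 0.5)) of every hairpin whose arms had a mean of at least 10 reads per library. Adjusted p-values (Benjamini-Hochberg) under 0.05 were called. Named miRNAs are both arms, those with their seed, the 3 most correlated with each arm, and the called and extreme members of the oncogenic list. miR-4648 and miR-196a-5p, and the shared run of miR-374a-3p, were named after their values or sequences were seen. Members and lists were chosen with earlier results of these data known.

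Libraries of the same line come from the same clone, which pairs them. Their deviations from the group means correlated at 0.225 to 0.334 for the siRNA groups, 0.0207 to 0.0386 for m6A and IgG, -0.0782 to -0.0158 for m6A and input, and -0.0228 to 0.0692 for IgG and input. Libraries of 1 group differed by more than sampling noise (chi-square per degree of freedom 7.79 to 166). On simulated data with 4-fold changes edgeR recovered 99.5% of those simulated for the knockdown (2418 miRNAs drawn), 86.0% for the m6A against the IgG libraries, 93.5% for m6A against input and 83.5% for IgG against input (2189 each), and at 2-fold 71.5%, 9.00%, 8.00% and 0%. limma recovered 97.0%, 13.0%, 63.0% and 43.5% of 4-fold changes in arm balance, and 33.0%, 2.00%, 0% and 0% of 2-fold changes. At 2-fold, 10.0% of the edgeR calls for m6A against IgG were false, 2.72% for the knockdown and 0% for m6A against input. The simulated counts had no line effect, and 200 miRNAs were changed for edgeR, in equal numbers each way. Far more miRNAs were called in the real precipitates, so recovery there can differ. The alternatives were TMM factors, DESeq2, no filter or another filter and pseudocount, no block and a joint fit. An exact test was also run, and each line was left out in turn. Totals were also taken without miR-6080 for the RIP-seq libraries and without miR-10a-5p for the knockdown libraries. The tests ran in edgeR 4.0.16, DESeq2 1.42.0 and limma 3.58.1 under R 4.3.3, and tables and figures were made with pandas 2.3.3, numpy 2.4.6, matplotlib 3.10.9 and scipy 1.17.1 under Python 3.11.15.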

Additional observations from a re-analysis of the deposited data

Results flagged for a closer look

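miR-21-3p moved in opposite directions in different cell lines in 2 comparisons. Under FTO siRNA it was at 1.18, 0.758 and 0.670 of its scrambled siRNA level in FTO1C1, FTO2D4 and FTO3C3. Its m6A level relative to IgG was 1.38, 1.09 and 0.515 in the same order. Each line gave 1 pair of libraries, so the difference between the lines was not tested. The IgG values behind the second set rest on 48, 60 and 33 reads.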

How the results depend on the processing

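Of the 98 settings tried over the 12 results on the arms, 87 kept direction and side of the threshold, 9 lost the call, 1 gained it and 1 turned the sign. Among them is the exact test of the arm balance in each comparison. Its side of the threshold was fixed beforehand, so its lost calls carry no information. m6A against IgG lost the call of miR-21-5p with TMM factors (0.57), DESeq2 (0.53) and totals without miR-6080 (0.63), and its range with a line left out was 1.28 to 1.40, with the adjusted p above 0.05 without FTO2D4. miR-21-3p for m6A against IgG ranged from -0.41 to 0.29 with a line left out and turned positive without FTO3C3. DESeq2 called miR-21-5p lower after knockdown (-0.72). With totals that leave out miR-10a-5p, miR-21-5p stayed uncalled after knockdown (-0.44, adjusted p 0.0859, edgeR), and 190 miRNAs were called. The arm balance for m6A against IgG ranged from -1.66 to -1.10 with a line left out. The exact test cannot pass with 3 pairs (p = 0.25), at mean changes of -1.44 for m6A against IgG, 1.35 for m6A against input and 2.79 for IgG against input. In other respects the cause of these changes was not tested.

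The number of miRNAs called after knockdown was 130, 55 with TMM factors (33 of them shared), and 0 to 201 with a line left out, with 0 without FTO1C1 (327 at an unadjusted p under 0.05) and 201 without FTO3C3. For m6A against IgG it was 818 and 470 to 730 with a line left out, the lowest without FTO2D4, and for m6A against input 1681 and 1074 with DESeq2. Without the replicate block 41 miRNAs were called after knockdown and the log2 fold change of miR-21-5p was -0.47 (adjusted p 0.463, edgeR), of miR-21-3p -0.27. For m6A against IgG they were 1.37 and -0.20, and no call on the arms changed in any comparison. Depth limits the IgG values of miR-21-5p most, with 11 to 29 reads.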

Other observations

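miR-539-3p had the same count of 5321 reads in 2 of the 6 knockdown libraries, the sole entry of at least 1000 reads that was equal between any 2 of them.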
